A study of Mus musculus with 4 samples.

Results

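ATP release channels and receptors for extracellular nucleotides were followed in EGFP-positive and Tomato-positive cells from the trachea and the stomach of Tas2r143-reporter mice. The 10 genes were chosen by name from the 48709 genes of the deposited expression table. They are the calcium homeostasis modulators Calhm1, Calhm2 and Calhm3, the pannexin Panx1, the P2X receptors P2rx4 and P2rx7, and the P2Y receptors P2ry1, P2ry2, P2ry6 and P2ry14. All 10 were found in the table, and each was read in all 4 libraries.

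Type II taste cells have no conventional synapse. They pass a taste signal to the nerve by releasing ATP through a large-pore channel that CALHM1 and CALHM3 form together, which opens when TRPM5 depolarizes the membrane. Pannexin 1 is another large-pore channel for ATP. Released ATP and its breakdown products act on P2X receptors, which are ion channels gated by ATP, and on P2Y receptors, which are coupled to G proteins, and ectonucleotidases on the cell surface break the nucleotides down to adenosine. Tuft cells of airway and gut, also called brush or chemosensory cells, use much of the same taste cascade.

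The study marked cells with a history of Tas2r143 promoter activity and asked which genes they express. Mice were Tas2r143-CreERT2;Rosa26flox-mT-stop-flox-mG on a C57BL/6 background. In these mice a BAC transgene drives the tamoxifen-dependent recombinase CreERT2 from the Tas2r143 promoter, and recombined cells exchange the red reporter Tomato for EGFP. All groups carried both alleles and received 1 mg tamoxifen per day intraperitoneally for 5 days, and cells were taken 5 days after the last injection. The mice were adult, of 1 transgenic line, and no mice without tamoxifen or without the transgene were among the libraries. EGFP-positive cells were sorted as EGFP+/DAPI- and Tomato-positive cells as Tomato+/EpCAM+/EGFP-/DAPI-, so that the epithelial marker EpCAM was demanded of the Tomato-positive cells alone. Cells from 3 mice were pooled for each sort and tissue, which gave 4 libraries and 1 library per group. Within a tissue, the sort and the library can therefore not be told apart, and an interval given below covers counting error only.

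Values are normalized counts, which are read counts per gene divided by a library factor and rounded. Their totals ranged from 9979296 to 15433150 per library, and 1 read was worth 0.79 to 1.61 of them, with the fewest reads in tracheal EGFP-positive cells. A floor of 3 reads corresponded to 2.36 to 4.83 normalized counts. The labels name opposite tissues in the title and in the tissue field of each sample. Groups were taken from the titles, which match the column names. The club cell gene Cyp2f2 was at 337775 in Tomato-positive cells labelled trachea and at 69 in those labelled stomach, and the pit cell gene Gkn1 was at 2 and 468388. All 12 genes of a tuft cell list were higher in EGFP-positive than in Tomato-positive cells of both tissues, by the 4-fold rule given below. By the same rule 25.2% of all genes measured were higher in the trachea and 14.8% in the stomach. Genes that every cell uses, such as Usp9x and Vps13c, were listed at 0 in tracheal Tomato-positive cells, so a value of 0 was not read as absence. No ratio is given against 0, and calls, log2 values and fitted differences that involve a 0 rest on the added 1.

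The comparison of EGFP-positive with Tomato-positive cells asked which release channels and receptors stood out in the reporter-marked cells. Calhm1, Calhm2 and Calhm3 were read in tracheal EGFP-positive cells and were at 1 or less in the other 3 libraries, and Panx1 was highest there too. P2rx4 was present in all 4 libraries and highest in gastric EGFP-positive cells. P2ry2 was found in both sorts of the trachea and was near the floor in the stomach. P2rx7, P2ry6 and P2ry14 were found in Tomato-positive cells and were listed at 0 in both EGFP libraries. P2ry1 did not reach 3 normalized counts in any library. The plot of the 10 genes by library shows these patterns.

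**Figure D1:**
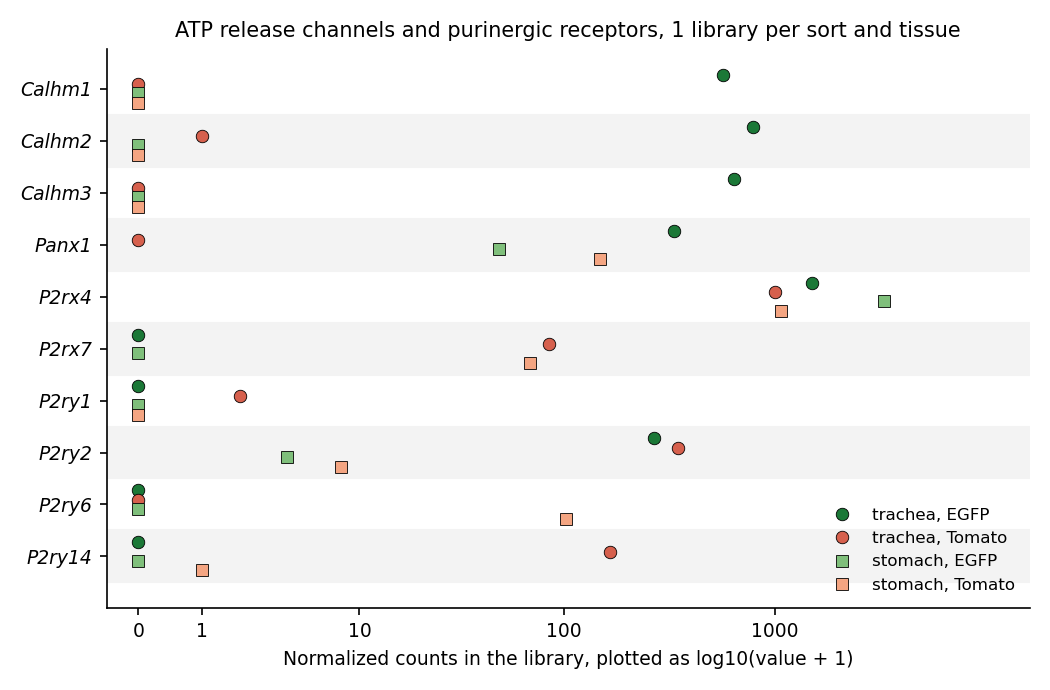
Normalized counts of the 10 genes in the 4 libraries, plotted as log10(value + 1), with 1 point per library (circles trachea, squares stomach, green EGFP-positive, red Tomato-positive cells). The Calhm genes have their only values above 1 in tracheal EGFP-positive cells, at 570, 783 and 638, whereas P2rx4 lies between 993 and 3269 in all 4 libraries.

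A gene was called higher or lower in a tissue when its value in EGFP-positive cells differed by at least 4-fold from that in Tomato-positive cells, after adding 1 to both, and when the higher value was at least 50. With 1 library per group this is a rule of size and not a test. In the trachea 8 of the 10 genes reached 50, of which 4 were higher (Calhm1, Calhm2, Calhm3 and Panx1), 2 were lower (P2rx7 and P2ry14) and 2 were neither (P2rx4 and P2ry2). Of all 10523 genes measured in the trachea 25.2% were higher and 32.4% lower, together 57.6%, so a call in itself was common. In the stomach 4 genes reached 50, of which none was higher, 2 were lower (P2rx7 and P2ry6) and 2 were neither (Panx1 and P2rx4). There 14.8% of 11094 genes were higher and 22.4% lower, together 37.2%. These counts include genes that reached 50 through their high library alone.

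**Figure D2:**
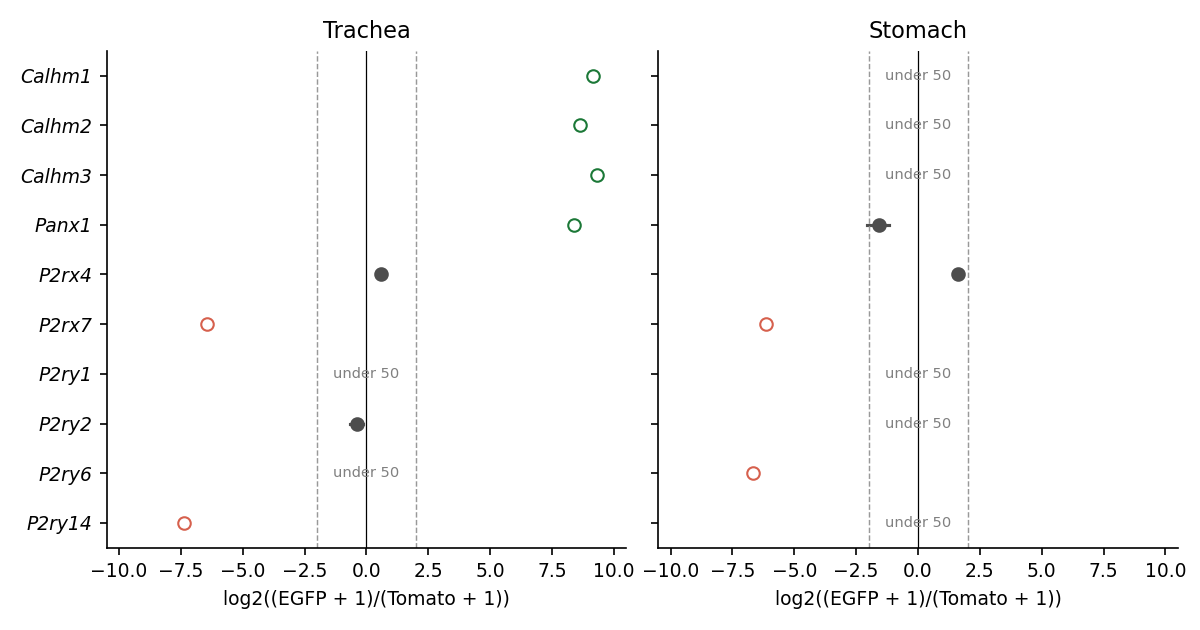
log2((EGFP + 1)/(Tomato + 1)) of the 10 genes in the trachea (left) and the stomach (right). Filled points carry 95% counting intervals, open points have 1 library at 0 or 1 so that their position depends on the added 1, dashed lines mark the 4-fold rule, and genes under 50 in both libraries of a tissue have no point. Panx1 lies at 8.38 in the trachea and at -1.58 in the stomach, and P2rx4 at 0.59 and 1.62.

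Calhm1 encodes the pore-forming subunit of the ATP release channel of taste cells. It was at 570 normalized counts in tracheal EGFP-positive cells and was listed at 0 in tracheal Tomato-positive cells and in both libraries of the stomach. Calhm3, whose product joins CALHM1 in the fast channel, was at 638 in tracheal EGFP-positive cells and was likewise listed at 0 in the other 3 libraries. Calhm2, a related channel gene with no established part in taste, was at 783 and 1 in tracheal EGFP-positive and Tomato-positive cells and at 0 in both gastric sorts, and values in a row below keep this order. All 3 genes were thus high in the same library and at or under 1 elsewhere. The ratio of Calhm2 in the trachea was 783, with a 95% counting interval from 173 to 38280 because it rests on a denominator of 1 read. Per kilobase of annotated exon, the level in tracheal EGFP-positive cells was 611 for Calhm3, 455 for Calhm1 and 180 for Calhm2, which placed them at percentiles 86.4, 81.6 and 62.5 of the genes with at least 50 normalized counts in that library. The exon length of Calhm2 includes a long isoform, and a length over all isoforms lowers its level per kilobase.

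To place this pattern, all genes with at least 50 normalized counts in tracheal EGFP-positive cells were searched for values of at most 2 in the other 3 libraries. Of 7807 genes, 279 or 3.57% had this pattern. Among the 3575 genes at 500 or more it was found in 53, or 1.48%, and Calhm1, Calhm2 and Calhm3 were among these 53. The cut at 500 was not among the planned settings and lies just under the lowest Calhm value in that library, 570. The Calhm genes pass either minimum only through the library in which they are high, so neither share measures how unusual they are. Panx1, at 333 in that library, did not have the pattern. The genes with the most similar profile over the 4 libraries, by Euclidean distance of centred log2 values, were Stpg3 (560, 0, 0 and 0), 1700003M07Rik and Ccdc13 for Calhm1. For Calhm2 they were Eef1a2 (1053, 1, 0 and 0), Susd4 and Gm36527, and for Calhm3 they were Cyp2g1 (642, 0, 0 and 0), the bitter taste receptor gene Tas2r105 (626, 0, 0 and 0) and Gm36527. Profiles of 4 values with 3 at or near 0 are similar whenever the remaining value is, and the order among such neighbours depends on small differences in level.

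The 3 Calhm genes are neighbours on chromosome 19 and lie on the minus strand. In GRCm38 with GENCODE M21 they span 52.4 kb, with Calhm2 at chr19:47105353-47138294, Calhm1 at chr19:47140909-47144254 and Calhm3 at chr19:47151609-47157764, and the intervals between them measure 2.61 and 7.35 kb. The gene next to Calhm3 on the outer side, Neurl1a, which encodes a ubiquitin ligase of the neuralized type, was at 1506 in tracheal EGFP-positive cells, at 0 in tracheal Tomato-positive cells and at 81 and 15 in gastric EGFP-positive and Tomato-positive cells. Pdcd11, on the other side, was at 53, 196, 28 and 27 in the same order of libraries, and Usmg5, a gene of the mitochondrial ATP synthase, was at 507, 740, 1129 and 664. Usmg5 lies beyond Pdcd11 and was chosen for mention after its values were seen. Of these genes, only the 3 Calhm genes were thus at 1 or less outside tracheal EGFP-positive cells. Neurl1a was also highest in that library, whereas Pdcd11 and Usmg5 were not. Pdcd11 overlaps Calhm2 on the opposite strand, and reads on exons of both genes were left out in counting, so the value of Calhm2 comes from its remaining exons and was counted without strand.

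**Figure D3:**
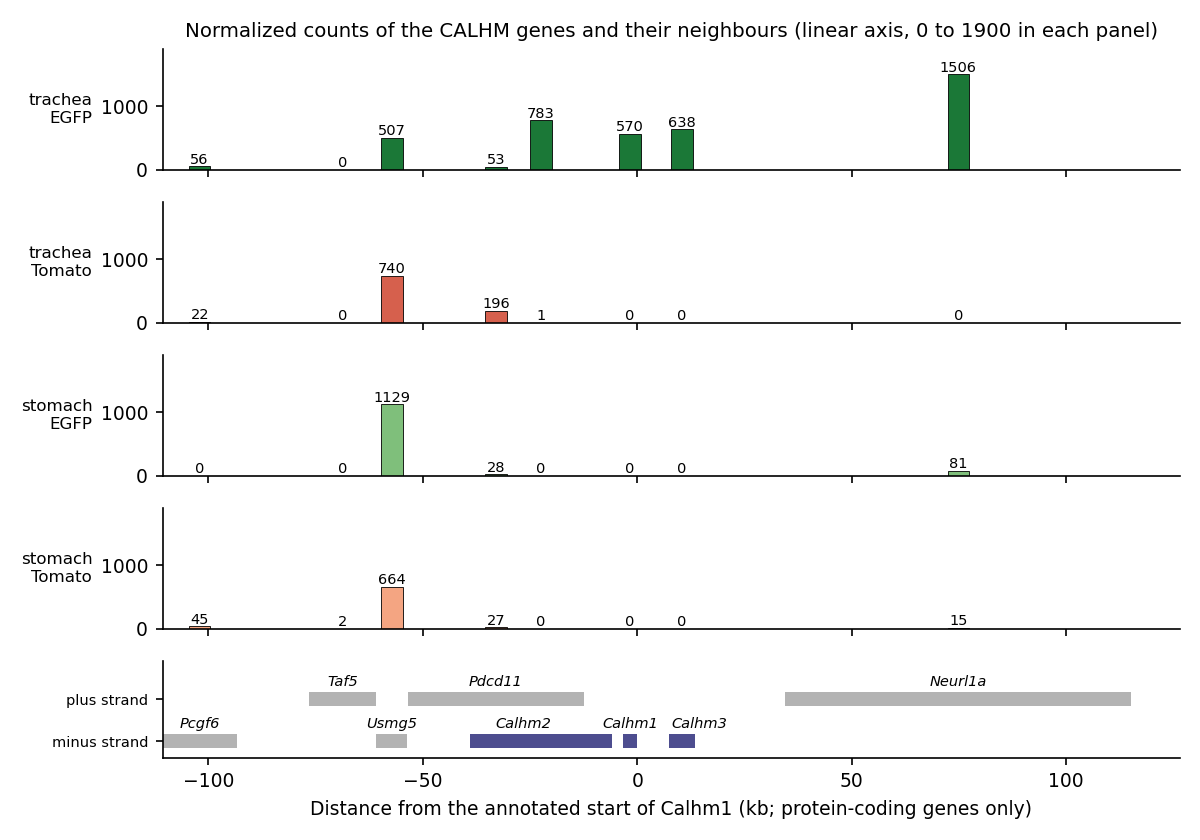
Normalized counts (linear axis) of the protein-coding genes around Calhm1 in the 4 libraries, with gene bodies drawn below against the distance from the annotated start of Calhm1 in kb. The 3 Calhm genes, at 783, 570 and 638 in tracheal EGFP-positive cells, lie beside one another between Usmg5 and Neurl1a and have bars in that library alone.

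The sequences before the starts of Calhm1 and Calhm2 are shown because both genes were read in the same library. They are from RefSeq (GRCm38.p6), are written on the minus strand from 5′ to 3′ and end at the base before the start, and CG dinucleotides are in capitals. For Calhm1, whose start lies further upstream in GENCODE, chr19:47144255-47144424 is given (170 bases), and for Calhm2 chr19:47138295-47138544 (250 bases).
Calhm1: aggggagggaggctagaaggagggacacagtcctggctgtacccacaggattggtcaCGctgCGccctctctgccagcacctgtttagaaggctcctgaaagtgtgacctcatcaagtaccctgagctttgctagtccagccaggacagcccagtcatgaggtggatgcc
Calhm2: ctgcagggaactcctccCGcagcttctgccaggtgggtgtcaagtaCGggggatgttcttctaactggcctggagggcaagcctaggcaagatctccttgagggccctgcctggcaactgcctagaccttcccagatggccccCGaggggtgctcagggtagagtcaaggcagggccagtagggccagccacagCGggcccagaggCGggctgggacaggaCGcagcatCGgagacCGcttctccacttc
Within 250 bases before the RefSeq start, Calhm1 had 5 (2 of them in the stretch shown) and Calhm2 had 8 CG dinucleotides, near the median of 6 over all 32851 promoters, whereas Panx1 had 17 and P2rx4 had 13. The GC content was 59.6% for Calhm1 and 64.4% for Calhm2, against a median of 52.4%. RefSeq promoters were matched for 8 of the 10 genes, in 13 windows. All motifs were searched on both strands. The octamer ATGCAAAT was in 1.60% of all promoters and in none of the 13 windows. TATAAA was in 12.4% of all promoters and in a window of P2ry14. TGACTCA was in 4.46% of all promoters, in a different window of P2ry14 and in a window of P2rx7. Both genes had more than a single window, so each was searched more often than a gene with a single promoter.

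Panx1 was at 333 normalized counts in tracheal EGFP-positive cells, was listed at 0 in tracheal Tomato-positive cells and was at 49 and 149 in gastric EGFP-positive and Tomato-positive cells. The direction was opposite in the 2 tissues, since the EGFP library was the higher of the pair in the trachea and the lower in the stomach. In the stomach the value of Tomato-positive cells was 3.04-fold that of EGFP-positive cells (95% counting interval 2.29 to 4.16), which is under the 4-fold rule. Between the EGFP libraries the trachea was 6.80-fold higher (5.13 to 9.24). Panx1 was at 55.2 normalized counts per kilobase in tracheal EGFP-positive cells (percentile 32.5), below all 3 Calhm genes on that scale. The genes with the nearest profile were Vps13c (271, 0, 50 and 138), Usp9x (317, 0, 37 and 122) and Gin1 (306, 0, 62 and 118). Vps13c and Usp9x are used by most cells, and they too were listed at 0 in tracheal Tomato-positive cells.

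Listing at 0 or near it was more frequent in the libraries of the trachea. Of genes with at least 50 normalized counts in the other 3 libraries, 8.19% were at 2 or less in EGFP-positive and 6.06% in Tomato-positive tracheal cells, against 1.41% and 0.58% in the stomach. The share fell with the level of the gene. In tracheal Tomato-positive cells it was 15.8% for genes whose lowest other value was from 50 to under 100 and 0.97% for those from 500 to under 1000. The Calhm genes do not belong to these classes, since they were high in 1 library only, and the share that applies to them was not tested.

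**Figure D4:**
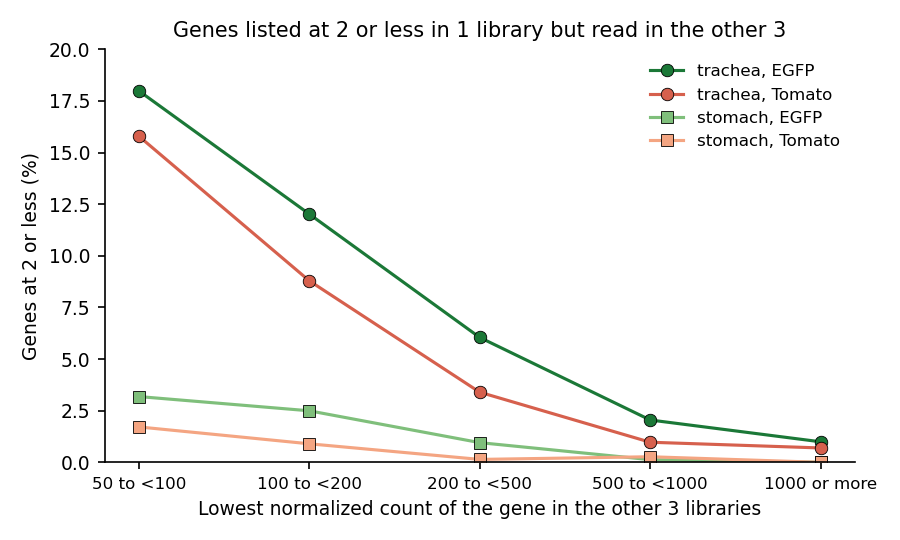
Share of genes (%) at 2 normalized counts or less in 1 library, by their lowest value in the other 3 libraries, with 1 line per library. In the trachea the share falls from 18.0% and 15.8% in the lowest class to 0.99% and 0.70% at 1000 or more, and both stomach libraries stay at 3.18% or below.

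Among the P2X receptors, P2rx4 encodes a channel with high calcium permeability that is found in many epithelia. It was at 1494 normalized counts in EGFP-positive and 993 in Tomato-positive tracheal cells, and at 3269 and 1066 in those of the stomach. EGFP-positive cells were the higher of the pair in both tissues, by 1.50-fold in the trachea (95% counting interval 1.38 to 1.64) and by 3.07-fold in the stomach (2.88 to 3.27), and neither difference reached 4-fold. The ratio was 2.04-fold larger in the stomach than in the trachea (1.83 to 2.27). Per kilobase P2rx4 was at 213 in tracheal EGFP-positive cells, between Calhm1 and Calhm2, and at 465 in those of the stomach, where it was at percentile 83.5 of the genes measured and the highest of the 10 genes. The Tomato libraries of both tissues were close, at 993 and 1066. Its nearest profiles were Fam208a, Gga2 and Dram2.

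P2rx7 encodes an ATP-gated channel that needs high ATP and is known mainly from macrophages and other leukocytes. It was at 85 and 69 normalized counts in Tomato-positive cells from trachea and stomach and was listed at 0 in EGFP-positive cells of both. Both Tomato libraries were therefore above both EGFP libraries, at a low level of 14.2 and 11.6 per kilobase. Of the 873 genes at 50 to 200 in both Tomato libraries, 6.53% were listed at 0 in both EGFP libraries. The actin-severing gene Scin (0, 84, 0 and 69) had the nearest profile, followed by Prg4 and Htra1.

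Among the P2Y receptors, P2ry2, which encodes a receptor for ATP and UTP of many epithelia, was at 267 in EGFP-positive and 349 in Tomato-positive tracheal cells. In the stomach it was at 4 and 8. The difference between tissues exceeded that between sorts, since the EGFP libraries differed 66.8-fold (95% counting interval 28.6 to 212) and the 2 sorts of the trachea 1.31-fold in favour of Tomato-positive cells (1.09 to 1.57). This smaller difference changed its sign, from -0.39 to 0.19 on the log2 scale, when the libraries were scaled to the same total, so its direction depends on the scaling. P2ry14, which encodes a receptor for UDP-sugars, was at 166 in tracheal Tomato-positive cells, at 1 in those of the stomach and at 0 in both EGFP libraries, a restriction to that library that 4.74% of the genes at 50 or more in it had. The nearest profiles of P2ry14 were Prickle1, Zfp14 and Ifitm10. P2ry14 lies within Med12l on the opposite strand, and reads were counted without strand. P2ry6, the UDP receptor, was at 102 in gastric Tomato-positive cells and at 0 in the other 3 libraries, and 4.8% of the genes at 50 or more there were restricted in the same way. Its nearest profiles were Gm43715, Kif4 and Pyy, each at 101 in that library. P2ry1, a receptor for ADP, was at 2 in tracheal Tomato-positive cells and at 0 elsewhere, under the floor in every library, so that it was not detectable at this depth.

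Markers of other cells were also higher in Tomato-positive cells, although EpCAM had been demanded in that sort. Over a list of 14 myeloid genes the summed level was 1190 and 49589 in tracheal EGFP-positive and Tomato-positive cells and 1136 and 23283 in those of the stomach. Of the genes measured, 7 of 9 were lower in tracheal EGFP-positive cells and 12 of 13 in those of the stomach. Over all genes 32.4% and 22.4% were lower. Lyz2, at 35491, made up most of the tracheal Tomato-positive sum. Ptprc went the other way, at 338 in EGFP-positive and 1 in Tomato-positive tracheal cells and at 1051 and 768 in the stomach. Of the same list, Csf1r, C1qa and C1qb were at 0 in both EGFP libraries. They were at 176, 80 and 542 in tracheal Tomato-positive cells and at 217, 1199 and 4611 in those of the stomach, and Adgre1 was found in the latter alone, at 908. All 7 genes of a fibroblast list were lower in EGFP-positive cells of both tissues as well, with sums of 480, 25888, 262 and 26405 in the order of libraries used above. P2rx7 was higher in Tomato-positive cells of both tissues, as the sums of these lists were. P2ry6 was at 0 in tracheal and P2ry14 at 1 in gastric Tomato-positive cells. Lists of basal and enteroendocrine cells were also higher in these sorts. The sums of a list of general epithelial genes went the other way, at 141635, 50541, 270536 and 108376 in that order of libraries. In the same order, the sums were 1254, 90304, 271 and 1657 for basal cell genes. For enteroendocrine genes they were 3, 184, 779 and 263796. The part of these cells in the values of P2rx7, P2ry6 and P2ry14 was not tested, and fewer cells of a type cannot be told apart from less RNA per cell in pooled libraries.

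The EGFP-positive cells of both organs were then set against each other. Of the 6 genes that reached 50 in an EGFP library, 5 were higher in the trachea (Calhm1, Calhm2, Calhm3, Panx1 and P2ry2), none was lower, and P2rx4 was neither, being 2.19-fold higher in the stomach (95% counting interval 2.04 to 2.35). Among all 10337 genes measured in this comparison 19.8% were higher and 28.3% lower in the trachea, together 48.1%. P2rx4 was the only one of the 10 genes that reached 50 in gastric EGFP-positive cells, and Panx1 missed it by 1. These calls share the EGFP library of the trachea with those given above. Tissue, cell dissociation and library cannot be told apart in them.

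The tissues were also taken as a block in a single fit over all genes (limma, EGFP minus Tomato, 1 residual degree of freedom), in which differences between the tissues count as error. None of the 9 genes tested passed. Their adjusted p-values lay between 0.634 for P2rx7 and 0.959 for P2ry2 (limma, Benjamini-Hochberg over 13023 genes), and 0 of the 9 had an unadjusted p under 0.05, where 11.0% of all genes had one. In this fit 2.33% of all genes passed, 121 higher and 183 lower. The fitted log2 difference was largest in size for P2rx7, at -6.28 ± 3.96 (moderated SE, n = 2 tissues). It was 1.10 ± 0.91 for P2rx4 and 3.40 ± 2.71 for Panx1. In limma these errors are drawn towards a trend over all genes, so they do not measure the spread of a gene between the tissues. P2rx7 was at -6.43 in the trachea and -6.13 in the stomach, and Panx1 at 8.38 and -1.58.

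Besides the 10 genes, 53 others of purinergic signaling and taste transduction were described from 7 lists. In the trachea 27 of them reached 50, with 11 higher and 14 lower in EGFP-positive cells, and in the stomach 31 did, with 8 higher and 10 lower. Of all genes measured 25.2% were higher and 32.4% lower in the trachea, and 14.8% and 22.4% in the stomach. Of the higher genes 8 in the trachea and 6 in the stomach belonged to the list of the taste cascade and CALHM partners. Without that list 40 genes remained, of which 3 of 18 measured were higher and 13 lower in the trachea and 2 of 19 higher and 8 lower in the stomach. The heat map of these genes gives the value of each in every library.

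**Figure D5:**
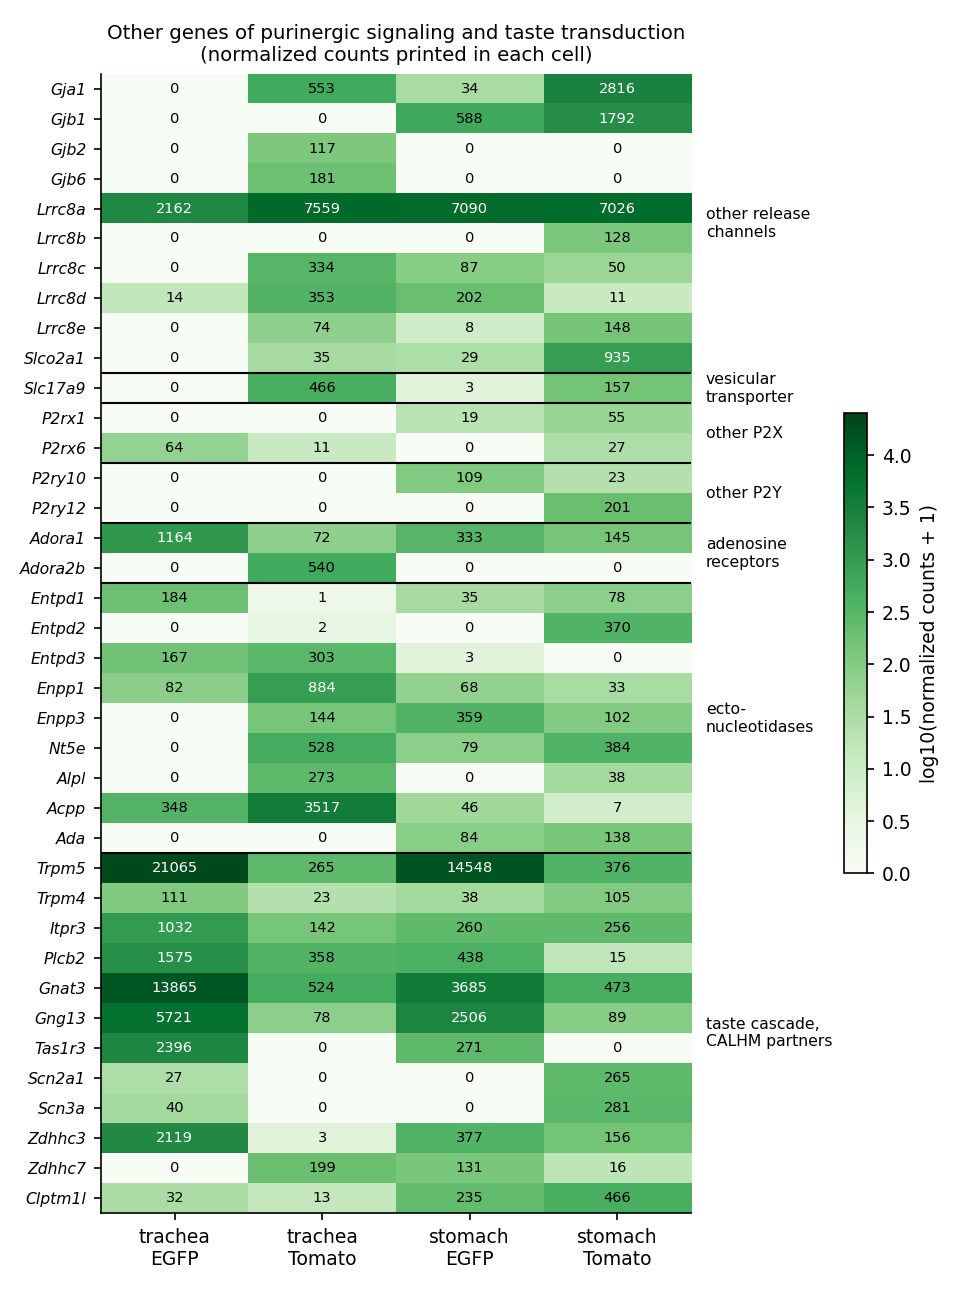
Normalized counts of the other genes of purinergic signaling and taste transduction that reached 50 in any library (rows, grouped by list) in the 4 libraries (columns), with the value printed in each cell and colour on the scale log10(value + 1). Trpm5, Gnat3, Gng13 and Tas1r3 are higher in the EGFP library of both tissues, whereas Slc17a9 and Gja1 are higher in the Tomato libraries.

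Of the genes of the taste cascade and CALHM partners, 8 of 9 measured were higher in tracheal EGFP-positive cells and 1 was lower, and in the stomach 6 of 12 were higher and 2 lower. Among all genes 25.2% were higher in the trachea and 14.8% in the stomach. The depolarizing cation channel Trpm5 was at 21065 and 265 normalized counts in tracheal EGFP-positive and Tomato-positive cells and at 14548 and 376 in those of the stomach. The gustducin gene Gnat3, an alpha subunit of G proteins, was at 13865 and 524 in the trachea and at 3685 and 473 in the stomach. Gng13, its gamma subunit, and Plcb2, the phospholipase of the cascade, were higher in both tissues too. Tas1r3, a subunit of the sweet and umami receptors, was at 2396 in tracheal EGFP-positive cells and 271 in those of the stomach, with 0 in both Tomato libraries. Itpr3, the calcium release channel of the cascade, was 7.27-fold higher in tracheal EGFP-positive cells (95% counting interval 6.13 to 8.61), and in the stomach its ratio was 1.02 (0.87 to 1.19). gastric EGFP-positive cells thus had the upstream genes Trpm5, Gnat3, Gng13 and Plcb2 above Tomato-positive cells, while Calhm1 and Calhm3 were listed at 0 in both.

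The palmitoyltransferases ZDHHC3 and ZDHHC7 modify CALHM1. Zdhhc3 was at 2119 in EGFP-positive and 3 in Tomato-positive tracheal cells and at 377 and 156 in those of the stomach. Zdhhc7 was at 0 and 199 in the trachea and at 131 and 16 in the stomach, so that its direction was opposite in the 2 tissues. Scn2a1 and Scn3a, sodium channel genes of the kind that carries action potentials in taste cells, were at 0 in gastric EGFP-positive cells and at 265 and 281 in Tomato-positive cells there. In the trachea they were at 27 and 40 in EGFP-positive cells and at 0 in Tomato-positive cells, under the minimum of 50.

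Of the other release routes, 15 channel genes were in the table. In the trachea 7 of them reached 50, and 6 of these were lower in EGFP-positive cells, among them the connexins Gja1 (0 against 553), Gjb2 (0 against 117) and Gjb6 (0 against 181). In the stomach 1 of 8 was higher and 4 were lower, and Gja1 was again lower there, at 34 against 2816. Among all genes 32.4% were lower in the trachea and 22.4% in the stomach. Lrrc8a, which encodes the obligatory subunit of volume-regulated anion channels, was at 2162 and 7559 in the trachea and at 7090 and 7026 in the stomach. It was called in neither tissue and was chosen for mention after its values were seen. Lrrc8d, an alternative subunit of the same channels, was at 14 and 353 in the trachea but at 202 and 11 in the stomach. Slc17a9, the vesicular nucleotide transporter that loads ATP into vesicles, was at 0 and 466 in tracheal EGFP-positive and Tomato-positive cells and at 3 and 157 in those of the stomach. Slc17a9 and Gja1 were thus called lower in EGFP-positive cells of both tissues. Lrrc8e was called lower in both too, at 0 and 74 in the trachea and at 8 and 148 in the stomach.

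Few of the other receptors were measured. P2rx6 was at 64 in EGFP-positive and 11 in Tomato-positive tracheal cells, a ratio of 5.82 (95% counting interval 3.03 to 11.3). P2ry10, a lysophospholipid receptor of lymphocytes that is named in the P2Y series, was at 109 and 23 in the stomach, and P2ry12, an ADP receptor of platelets and microglia, was at 0 and 201. Of a list of 7 B and plasma cell genes 5 of 5 measured were higher in gastric EGFP-positive cells, where 14.8% of all genes were higher. The sums over the list were 685389 and 36932. Cd79a was at 791 and 20, Cd79b at 2855 and 2 and Mzb1 at 1848 and 59 in gastric EGFP-positive and Tomato-positive cells, while Ms4a1 was at 0 in all libraries. In the trachea, where P2ry10 was at 0 and 25.2% of all genes were higher, 3 of 3 measured were higher as well, with sums of 19332 and 964. The part of such cells in the value of P2ry10 was not tested. Among the adenosine receptors, Adora1 was 16.2-fold higher in tracheal EGFP-positive cells, at 1164 against 72 (12.96 to 20.4), and was at 333 and 145 in the stomach. Adora2b was at 540 in tracheal Tomato-positive cells and at 0 in the other 3 libraries.

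Of the ectonucleotidases measured in the trachea 5 of 7 were lower and 1 was higher in EGFP-positive cells, where 32.4% of all genes were lower. In the stomach 2 of 6 were lower and 0 higher, where 22.4% of all genes were lower. Nt5e, the ecto-5′-nucleotidase that forms adenosine from AMP, was at 0 and 528 in the trachea and at 79 and 384 in the stomach. Entpd2, which turns ATP into ADP and serves glia-like cells of taste buds, was at 370 in gastric Tomato-positive cells and at most at 2 elsewhere. Acpp, a phosphatase that also cleaves AMP, was at 348 and 3517 in the trachea and at 46 and 7 in the stomach. Enpp1, which cleaves ATP to AMP, was at 82 and 884 in the trachea and at 68 and 33 in the stomach, and Enpp3, of the same family, was at 0 and 144 and at 359 and 102. The EGFP library was thus the lower of the pair in the trachea and the higher in the stomach for all 3 genes. Entpd1, the nucleoside triphosphate diphosphohydrolase CD39, was higher in the trachea, at 184 in EGFP-positive and 1 in Tomato-positive tracheal cells. In the stomach it was at 35 and 78.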

How the data were processed

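RNA from EGFP-positive and Tomato-positive cells of trachea and stomach was amplified as full-length cDNA (SMART-Seq v4, without molecular identifiers or strand). Reads were trimmed by the authors with Reaper 13-100, mapped to GRCm38 with STAR 2.4.0a and assigned to exons with featureCounts 1.4.5-p1, where reads on more than 1 gene or with more than 1 alignment were dropped. The deposited values are a signal, here called normalized counts: reads per gene after division by a library factor and rounding. For the origin of these factors, the sources used here give nothing. A factor shifts every gene of a library alike on the log2 scale.

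From these values log2((EGFP + 1)/(Tomato + 1)) was calculated, with calls at 4-fold and a minimum of 50. The worth of 1 read in each library was estimated from the spacing of the values, tested on simulated data, and gave estimated reads, a floor of 3 reads and exact binomial 95% intervals, which cover counting error only. Rounding kept whole reads from being recovered exactly, so no count model was run. limma 3.58.1 (R 4.3.3, trend, tissue as block) was fitted to log2(value + 1). Coordinates and exon lengths are from GENCODE M21. Of symbols listed repeatedly (116) the row with the largest sum was kept. The genes named are the 10 members, called genes of the pathway lists, the 3 nearest profiles, direct neighbours on the chromosome, and markers. Members and lists were chosen with earlier results of these data known. Alternatives changed the pseudocount, minimum, scaling, fold and limma settings.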

Additional observations from a re-analysis of the deposited data

Results flagged for a closer look

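Among the 10 genes Panx1 went in opposite directions in the 2 tissues. Its log2(EGFP/Tomato) was 8.38 in the trachea and -1.58 in the stomach. Of the other genes of the lists that were measured in both tissues and called in at least 1, the following went in opposite directions. Lrrc8d was at -4.56 in the trachea and 4.08 in the stomach and Zdhhc7 at -7.64 and 2.96, and both genes were beyond 4-fold in both tissues. Entpd1 was at 6.53 and -1.13 and Trpm4 at 2.22 and -1.44. Lrrc8c was at -8.39 and 0.79, Enpp1 at -3.41 and 1.02 and Enpp3 at -7.18 and 1.81. None of these differences was tested, since there was 1 library per sort and tissue. The tracheal values of Panx1, Zdhhc7, Lrrc8c and Enpp3 depend on the added 1 because 1 of the libraries was listed at 0, and that of Entpd1 rests on a value of 1 in Tomato-positive cells.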

How the results depend on the processing

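With a minimum of 200 normalized counts the 6 calls in the trachea became 4, all higher, since P2rx7 and P2ry14 were no longer measured. The 48 recomputed log2 values of the 10 genes kept their call in 48 cases and their sign in 47. The exception was P2ry2 in the trachea under scaling to the same total. This scaling added 0.58 to the log2(EGFP/Tomato) of every gene well above 0 in the trachea, 0.18 in the stomach and 0.45 between the EGFP libraries. Of the 2 calls in the stomach, 0 were left with a minimum of 200 normalized counts, where 1 gene was measured, and 4 were made with a 2-fold rule, 1 higher and 3 lower. The 18 other genes called in the stomach became 28 without a minimum. None of the 10 genes passed limma under any setting, although P2rx7 had an unadjusted p of 0.0155 without the trend (limma, adjusted p 0.643). Over all genes limma called 304, but 25 higher and 19 lower with a pseudocount of 0.1, and 0 without a minimum, without the tissue block or without the trend, where 819, 776 and 976 had an unadjusted p under 0.05. The limma fit pairs the sorts of a tissue, since the tissue is its block. With 1 library per sort and tissue no further pairing was possible, and leaving out a library leaves no residual degrees of freedom. The tracheal EGFP library had the fewest estimated reads, yet values near 0 were frequent in the deeper tracheal Tomato library too, and the cause was not tested.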

Other observations

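Some of the receptor genes lie beside one another on the chromosome and differed in their profile over the libraries. P2rx7 and P2rx4 are neighbours on chromosome 5, 16.1 kb apart on the same strand. P2rx4 was at 1494 and 3269 normalized counts in EGFP-positive cells of trachea and stomach, where P2rx7 was listed at 0, and at 993 and 1066 in Tomato-positive cells, where P2rx7 was at 85 and 69. Camkk2, a calcium-dependent kinase gene on the other side of P2rx4, was at 0 in both libraries of the trachea and at 282 and 23 in gastric EGFP-positive and Tomato-positive cells. P2ry6 and P2ry2 are 21.9 kb apart on chromosome 7. P2ry2 was at 267 and 349 in the trachea, where P2ry6 was at 0, and at 4 and 8 in the stomach, where P2ry6 was at 0 and 102.

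Gpr171, another receptor gene, lies beside P2ry14 on chromosome 3. Gpr171 was at 0 and 514 in EGFP-positive and Tomato-positive tracheal cells and at 9 and 79 in those of the stomach. Like P2ry14 it was listed at 0 in the tracheal EGFP library and was highest in the tracheal Tomato library. In the direct neighbours of Panx1 on chromosome 9, Izumo1r and Hephl1, no library had a value above 0.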
